A study of Arabidopsis thaliana with 9 samples.

Results

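The 10 genes described here are outputs of the shade avoidance response and enzymes of auxin synthesis in Arabidopsis thaliana. They were chosen by locus: IAA19, IAA29, YUC2, YUC8, YUC9, TAA1, FHL, FHY1, ATHB2 and ATHB4, which are 10 of the 37328 genes in the authors' deposited table. RNA sequencing compared whole seedlings of 3 genotypes in the Col-0 ecotype: a line that overexpresses RPGE2 (RPGE2-OX), a mutant in both GOLDEN2-LIKE genes, GLK1 and GLK2 (glk12), and the wild type (WT), with 3 replicates each. All seedlings were grown for 7 days in continuous white light (50 µmol per m2 and s, 22 °C) after 3 days of cold treatment at 4 °C, so the 9 samples carry no shade treatment. No source used here gives the promoter that drives RPGE2, the number of independent overexpressing lines or the mutant alleles. The table holds 1 log2 ratio and 1 q value per gene for each line over WT and no value for any single sample, so sample values, SDs over replicates and sequencing depth cannot be given. The labels do not tell whether replicates are separate cultures, so the q values may measure technical spread only. A gene was called changed at q below 0.05. The 95% intervals printed here come from the error that each q value implies for its ratio.

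In shade, phytochrome B loses its active form and PIF transcription factors gain activity. PIFs raise the transcription of YUCCA genes, whose enzymes make auxin from the indole-3-pyruvate that TAA1 produces from tryptophan. The new auxin and the PIFs together raise Aux/IAA genes such as IAA19 and IAA29, PIFs raise HD-Zip II genes such as ATHB2, and stems elongate. FHY1 and FHL are small proteins that carry phytochrome A into the nucleus, where it restrains elongation in deep shade. GLK1 and GLK2 activate nuclear genes for photosynthesis, and RPGE proteins repress GLK activity.

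The 300 bases upstream of the annotated starts of FHL, IAA19 and YUC2 are shown because these were the 3 members called in at least 1 line. FHY1, the relative of FHL, was called in neither line and is shown for contrast. The sequences were read from the RefSeq assembly TAIR10.1 and are written 5′ to 3′ on the strand of the gene. Capitals mark matches, on either strand, to CACGTG (the G-box), CACATG (an E-box variant that PIFs bind), TGTCTC (the auxin response element), CAATNATTG (a site of HD-Zip proteins), and AGATTCT and CCAATC (motifs reported for GLK proteins). No matches overlapped in these 4 sequences.
FHL (chr5:437065-437364, plus strand): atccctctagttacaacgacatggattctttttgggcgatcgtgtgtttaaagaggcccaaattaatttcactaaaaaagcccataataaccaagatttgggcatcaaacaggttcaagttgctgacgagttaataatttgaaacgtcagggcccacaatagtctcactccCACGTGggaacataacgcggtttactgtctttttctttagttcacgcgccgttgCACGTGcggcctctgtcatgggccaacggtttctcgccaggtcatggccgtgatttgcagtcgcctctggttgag
FHY1 (chr2:15802794-15803093, minus strand): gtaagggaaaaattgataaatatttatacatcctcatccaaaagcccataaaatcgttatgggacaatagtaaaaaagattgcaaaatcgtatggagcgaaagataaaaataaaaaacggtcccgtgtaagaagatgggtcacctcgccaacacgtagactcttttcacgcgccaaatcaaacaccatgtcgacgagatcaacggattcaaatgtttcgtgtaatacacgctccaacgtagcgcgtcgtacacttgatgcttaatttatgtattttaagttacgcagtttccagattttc
IAA19 (chr3:5263701-5264000, plus strand): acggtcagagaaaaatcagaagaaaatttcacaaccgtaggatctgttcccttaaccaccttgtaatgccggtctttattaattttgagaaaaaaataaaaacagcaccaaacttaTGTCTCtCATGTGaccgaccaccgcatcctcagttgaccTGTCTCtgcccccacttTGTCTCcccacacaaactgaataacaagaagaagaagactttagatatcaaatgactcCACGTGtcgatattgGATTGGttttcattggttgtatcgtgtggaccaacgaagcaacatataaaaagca
YUC2 (chr4:7724071-7724370, minus strand): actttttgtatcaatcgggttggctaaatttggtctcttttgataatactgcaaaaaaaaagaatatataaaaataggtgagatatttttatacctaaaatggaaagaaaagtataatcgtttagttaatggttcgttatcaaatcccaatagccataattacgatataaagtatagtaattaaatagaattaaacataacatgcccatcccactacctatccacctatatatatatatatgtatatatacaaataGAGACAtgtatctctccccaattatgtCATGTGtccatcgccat

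FHL held the G-box at 129 and 75 bases upstream of its start, and IAA19 held it at 70 bases. The G-box was thus present in 2 of the 10 windows, against 7.09% of 27437 windows upstream of protein-coding genes. The CACATG variant was found in 4 of the 10 (IAA19, YUC2, YUC8 and YUC9), against 13.1% of all windows, and lay between 17 and 65 bases from the start in the 3 YUCCA genes. IAA19 held the auxin response element at 3 positions and YUC2 held it at 1, and 13.0% of all windows held at least 1. Of the motifs reported for GLK proteins, CCAATC occurred upstream of IAA19 alone among the 10 (12.2% of all windows), and AGATTCT occurred in none of the 10 (7.58%). The HD-Zip site was in none of the 10 and in 1.14% of all windows. No letters of these 6 motifs were found in the windows of IAA29, TAA1, FHY1, ATHB2 and ATHB4. A match is a string of letters and was not tested as a binding site. Sites of other factors were not searched for, so a window without matches may hold them. None of the 10 genes overlaps another annotated gene, and none of the 10 windows does.

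**Figure D1:**
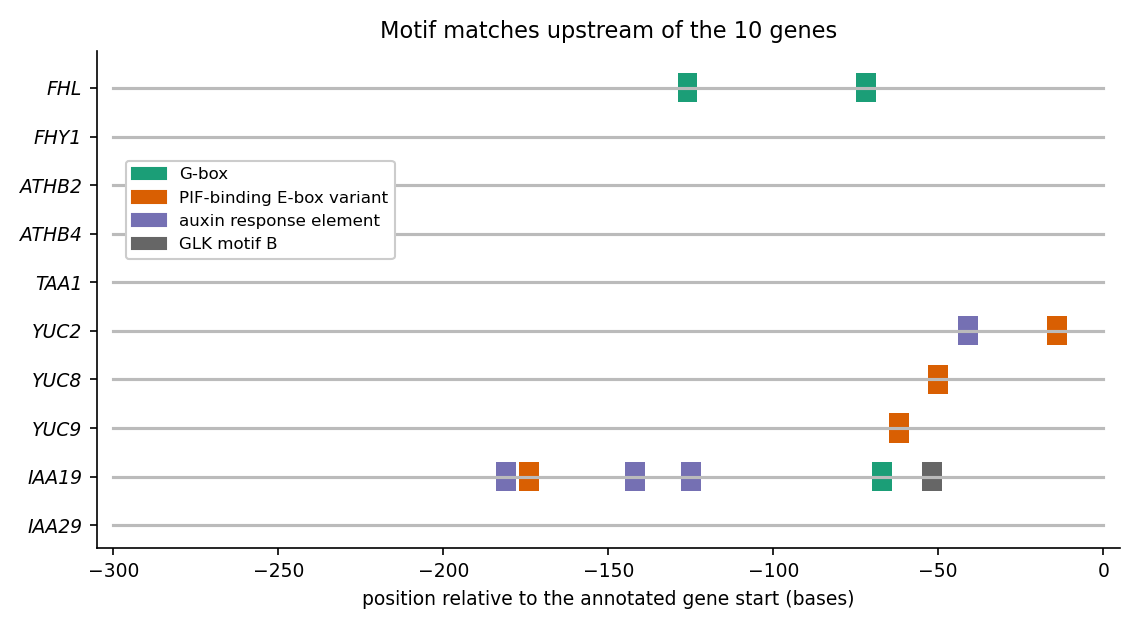
Matches to the searched motifs in the 300 bases upstream of each gene, with position in bases relative to the annotated gene start at 0 and 1 line per gene. FHL has 2 G-boxes, IAA19 has matches to 4 motifs, and 5 genes have none.

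The line labels were read first. In the authors' deposited table AT3G55240, a locus of the RPGE family, was higher in RPGE2-OX (log2 ratio 4.79, q = 0.00176) and lower in glk12 (-6.46, q = 0.00191). GLK1 was higher in RPGE2-OX (0.45, q = 0.0132) and lower in glk12 (-2.64, q = 0.00191) in the deposited table. GLK2 was likewise higher in RPGE2-OX (0.40, q = 0.0379) and lower in glk12 (-1.41, q = 0.00191) there. Some root markers and some leaf markers were called in these whole seedlings too. Of 6 root markers, COBL9, PRP3 and RCI3 were lower in RPGE2-OX, with log2 ratios of -0.68 to -0.56 in the authors' deposited table and a list median of -0.58. COBL9, EXPA18 and RCI3 were lower in glk12, with deposited ratios of -0.89 to -0.69 and a list median of -0.77. Of 3 markers of green shoot tissue, RBCS3B (log2 ratio -0.74) and RCA (-0.52) were lower in RPGE2-OX, and RBCS3B (-0.82) was lower in glk12, in the deposited table. The other markers of both lists were not called in the line concerned, and 1 root marker lay above 0 in glk12 (0.12). Over all tested genes, 3.98% were lower in RPGE2-OX and 3.04% in glk12. The part of tissue composition in the values of the 10 genes was not tested, and in whole seedlings fewer cells of a type and less RNA per cell cannot be told apart.

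Of the 10 members, all of which were tested in both comparisons, 3 fell in RPGE2-OX (FHL, IAA19 and YUC2) and 1 fell in glk12 (FHL), and none rose in either line in the authors' deposited table. Over all tested genes, 6.55% were called in RPGE2-OX (3.98% lower) and 5.67% in glk12 (3.04% lower). The median log2 ratio of the 10 was -0.24 in RPGE2-OX and -0.63 in glk12, against 0.01 and 0.02 over all tested genes. In each line 8 of the 10 ratios lay below 0, which 47.8% of all tested ratios did in RPGE2-OX and 47.6% in glk12. Before adjustment for multiple testing, a recovered p below 0.05 was reached by 4 members in RPGE2-OX (FHL, IAA19, YUC2 and IAA29) and by 5 in glk12 (FHL, YUC2, YUC8 and IAA29 with ratios below 0 and TAA1 with a ratio above 0). The same was true of 16.5% of all tested genes in RPGE2-OX and 15.6% in glk12.

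**Figure D2:**
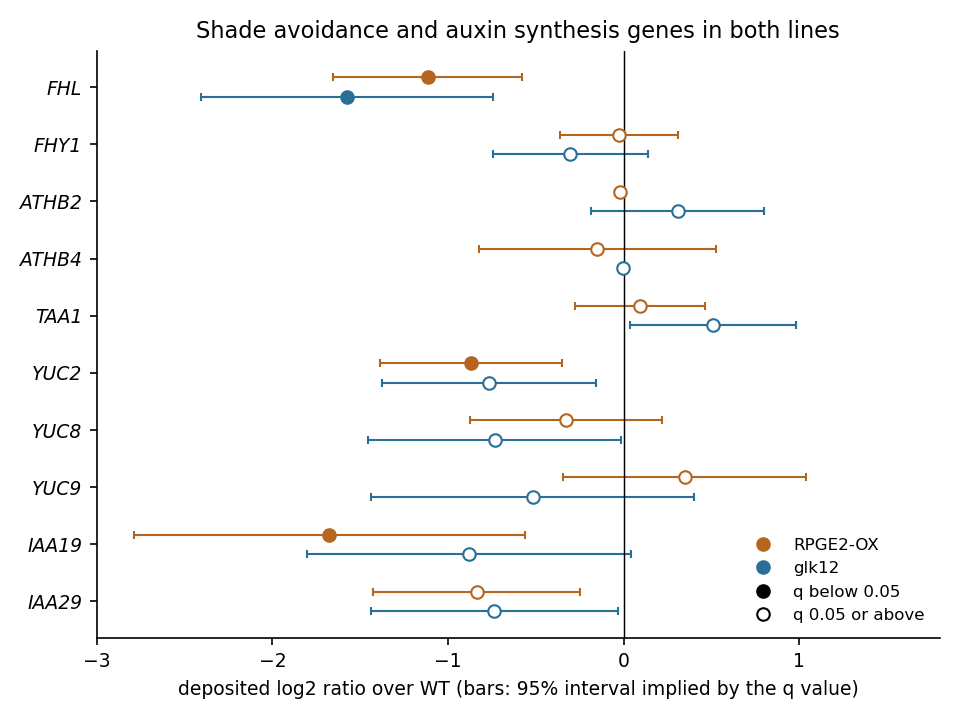
Deposited log2 ratio over WT of each member in RPGE2-OX (upper point of each pair) and glk12 (lower point), with 95% intervals implied by the q values and filled points at q below 0.05. Bars are left out for ATHB2 in RPGE2-OX and ATHB4 in glk12, whose p values lie too close to 1 to give an error. FHL lies below 0 in both lines, and the ratios of ATHB2, ATHB4 and FHY1 lie between -0.30 and 0.31.

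Over all genes, 663 were called in both lines, which share the WT samples, and 423 of these were lower in both. Finite ratios were tested in both lines for 21380 genes. FHL (AT5G02200, chromosome 5, 437365 to 439019) was the only member called in both lines. The authors' deposited table gave it a log2 ratio of -1.11 in RPGE2-OX (q = 0.00176), a 2.17-fold lower level than in WT, with an interval of -1.65 to -0.58 that is at its widest because the q value is the lowest in the column. In glk12 the deposited ratio of FHL was -1.58 (q = 0.0063), a 2.98-fold lower level, with an interval of -2.41 to -0.75. Of the tested genes, 528 of 21680 had a ratio below that of FHL in RPGE2-OX and 303 of 21843 had one in glk12. The intervals of FHL in RPGE2-OX and glk12 overlap over most of their length.

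FHY1 (AT2G37678, chromosome 2, 15801418 to 15802793), which acts beside FHL in the import of phytochrome A, did not pass in either line. Its deposited log2 ratios were -0.03 in RPGE2-OX (q = 0.979, interval -0.36 to 0.31) and -0.30 in glk12 (q = 0.603, interval -0.75 to 0.14). A halving of FHY1, a log2 ratio of -1, lies outside both intervals. The coding sequences of FHL (606 bases) and FHY1 (609 bases) share 65.5% of aligned bases. PHYA, which encodes the photoreceptor that both proteins carry, had deposited ratios of -0.06 in RPGE2-OX (q = 0.924) and 0.01 in glk12 (q = 0.991). FHY3 and FAR1, the transcription factors known to activate FHY1 and FHL, had deposited ratios between -0.01 and 0.09 across both lines and were not called. Among the other 10 genes of the list of phytochromes and phytochrome A signalling, PHYD, a minor phytochrome, rose in glk12 (deposited log2 ratio 0.63, q = 0.0361), and no gene was called in RPGE2-OX. Over all tested genes, 5.67% were called in glk12 and 6.55% in RPGE2-OX, so these counts are near the share of all genes.

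ATHB2 (AT4G16780, chromosome 4, 9449114 to 9450905) and ATHB4 (AT2G44910, chromosome 2, 18517656 to 18519731) encode HD-Zip II transcription factors, of which ATHB2 is a classic marker of the response to low red to far-red light. Neither passed in either line in the authors' deposited table. ATHB2 had deposited log2 ratios of -0.02 in RPGE2-OX (q = 0.988) and 0.31 in glk12 (q = 0.658, interval -0.19 to 0.80). ATHB4 stood at -0.15 in RPGE2-OX (q = 0.933, interval -0.82 to 0.52) and -0.01 in glk12 (q = 0.997) in the deposited table. The other 8 HD-Zip II genes had no call in either line, with medians of -0.04 in RPGE2-OX and 0.01 in glk12. Their widest deposited ratio was 0.64 for HAT9 in glk12 (q = 0.373). Calls were made for 6.55% of all tested genes in RPGE2-OX and 5.67% in glk12, so none among 8 genes is near that share. HAT3, whose coding sequence is the closest to ATHB4 in the family (76.4% of aligned bases), had deposited ratios of -0.07 in RPGE2-OX and 0.37 in glk12, and HAT1, the closest to ATHB2 (72.8%), had 0.00 and 0.11.

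YUC2 (AT4G13260, chromosome 4, 7721487 to 7724070) fell in RPGE2-OX, where the authors' deposited table gave a log2 ratio of -0.87 (q = 0.0208), a 1.83-fold lower level with an interval of -1.39 to -0.35. In glk12 its deposited ratio was -0.77 and did not pass (q = 0.147, interval -1.37 to -0.16). The implied errors of these ratios were 0.26 in RPGE2-OX and 0.31 in glk12. YUC6, the closest YUCCA gene to YUC2 by coding sequence (67.2% of aligned bases), had deposited ratios of -0.10 in RPGE2-OX (q = 0.917) and -0.17 in glk12 (q = 0.894).

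YUC8 (AT4G28720, chromosome 4, 14192569 to 14194302) and YUC9 (AT1G04180, chromosome 1, 1104493 to 1106241), the YUCCA genes best known as PIF targets in shade, did not pass in either line. YUC8 had deposited log2 ratios of -0.33 in RPGE2-OX (q = 0.656, interval -0.87 to 0.22) and -0.73 in glk12 (q = 0.303, interval -1.45 to -0.01). For YUC9 the authors' deposited table gave 0.35 in RPGE2-OX (q = 0.742, interval -0.34 to 1.04) and -0.52 in glk12 (q = 0.708, interval -1.44 to 0.40), the only member besides ATHB2 whose ratios had opposite signs. YUC5, which shares 81.0% of aligned coding bases with YUC9, had deposited ratios of -0.50 in RPGE2-OX (q = 0.189) and -0.39 in glk12 (q = 0.578). Of the 11 YUCCA genes 7 were tested in RPGE2-OX and 6 in glk12, and YUC2 in RPGE2-OX was the only call among them. Of all tested genes, 6.55% were called in RPGE2-OX and 5.67% in glk12. All 6 tested ratios lay below 0 in glk12 (median -0.46) and 5 of 7 did in RPGE2-OX (median -0.25). Of all tested ratios, 47.6% lay below 0 in glk12 and 47.8% in RPGE2-OX. Without the 3 members the medians were -0.24 in glk12 (3 tested genes) and -0.18 in RPGE2-OX (4 tested genes).

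TAA1 (AT1G70560, chromosome 1, 26604855 to 26607652), the aminotransferase that makes indole-3-pyruvate, had deposited log2 ratios of 0.09 in RPGE2-OX (q = 0.917, interval -0.27 to 0.46) and 0.51 in glk12 (q = 0.255, interval 0.04 to 0.98). It passed in neither line and was the only member above 0 in both. TAR1, the closest relative of TAA1 by coding sequence (75.5% of aligned bases), was not tested in either line. The next closest, TAR2 (64.8%), had deposited ratios of -0.01 in RPGE2-OX (q = 0.99) and -0.41 in glk12 (q = 0.346). The more distant loci AT1G34060 and AT1G34040, annotated as pyridoxal phosphate-dependent transferases, were each lower in 1 line in the authors' deposited table. AT1G34060 fell in RPGE2-OX (-1.18, q = 0.0324) and stood at -1.07 in glk12 (q = 0.143), and AT1G34040 stood at -0.49 in RPGE2-OX (q = 0.143) and fell in glk12 (-1.06, q = 0.0135). Of all tested genes, 3.98% were lower in RPGE2-OX and 3.04% in glk12.

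**Figure D3:**
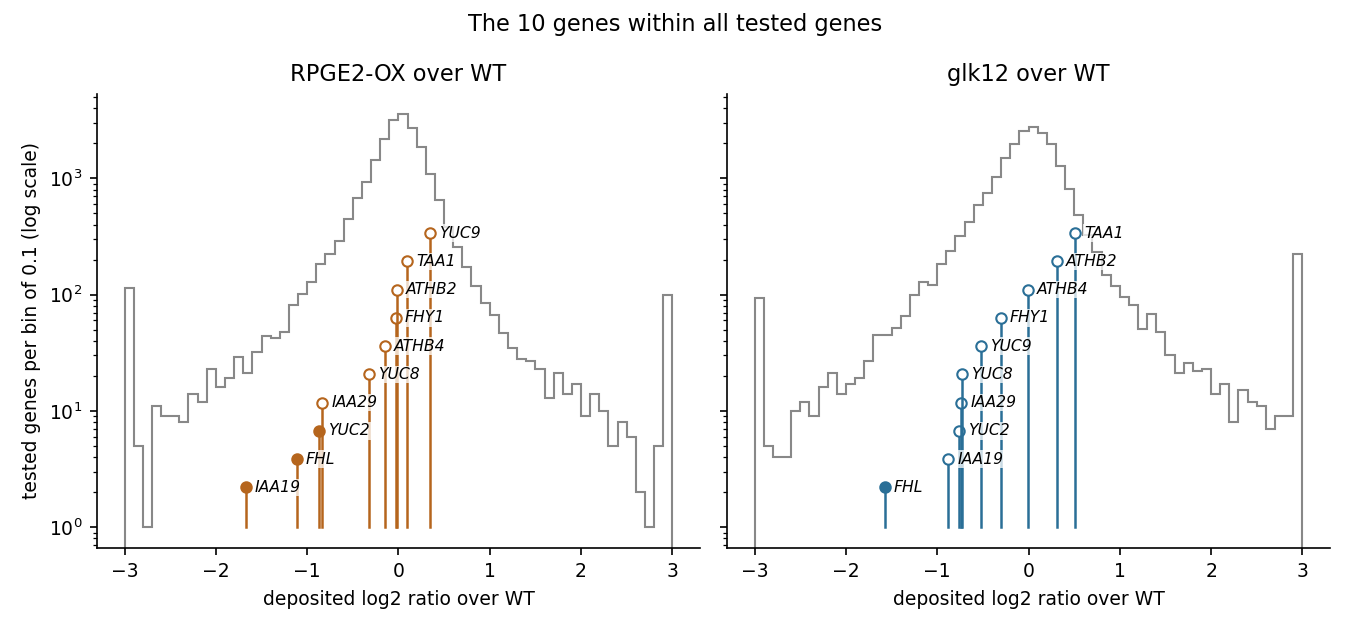
Distribution of deposited log2 ratios over all tested genes (grey outline, log scale, bins of 0.1, with the outermost bins holding everything beyond 3 in size, infinite ratios included) and the positions of the 10 genes in RPGE2-OX (left) and glk12 (right). Points are filled at q below 0.05, and the heights of the stems carry no value. In glk12, IAA19, YUC2, IAA29 and YUC8 lie close together between -0.88 and -0.73, none of them past the threshold.

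Upstream of TAA1, genes for tryptophan synthesis rose in glk12. Of 12 genes for tryptophan supply and side routes to auxin, 7 rose and 1 fell in glk12 in the authors' deposited table (median 1.00), against 2.63% of all tested genes higher and 3.04% lower there. In RPGE2-OX 1 rose and 1 fell (median 0.18), against 2.57% higher and 3.98% lower. The anthranilate synthase genes ASA1 and ASB1 had deposited log2 ratios of 0.36 and 0.43 in RPGE2-OX (q = 0.136 and 0.103), and rose by 2.65-fold and 2.5-fold in glk12 (q = 0.00191 for both). For the tryptophan synthase genes TSA1 and TSB1 the deposited table gave 0.42 (q = 0.039, a rise) and 0.29 (q = 0.209) in RPGE2-OX, and rises of 2.63-fold and 2.18-fold in glk12. CYP79B2, whose enzyme turns tryptophan into indole-3-acetaldoxime, and the nitrilase gene NIT2 rose in glk12 by 2.74-fold and 2.88-fold in the deposited table, with ratios of 0.24 and -0.02 that did not pass in RPGE2-OX. NIT1 fell in RPGE2-OX (-0.47, q = 0.0103) and NIT3 fell in glk12 (-0.66, q = 0.0494) in the authors' deposited table. In a test of RPGE2-OX minus glk12 with implied errors, 8 of the 12 genes had negative differences at an unadjusted p below 0.05, as 3.6% of all genes did in either direction, and none passed after adjustment over all genes. The 7 genes that rose in glk12 have the lowest q of its column, so their errors there are at their largest. With errors borrowed from the other line, CYP79B2, ASA1 and TSA1 passed.

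**Figure D4:**
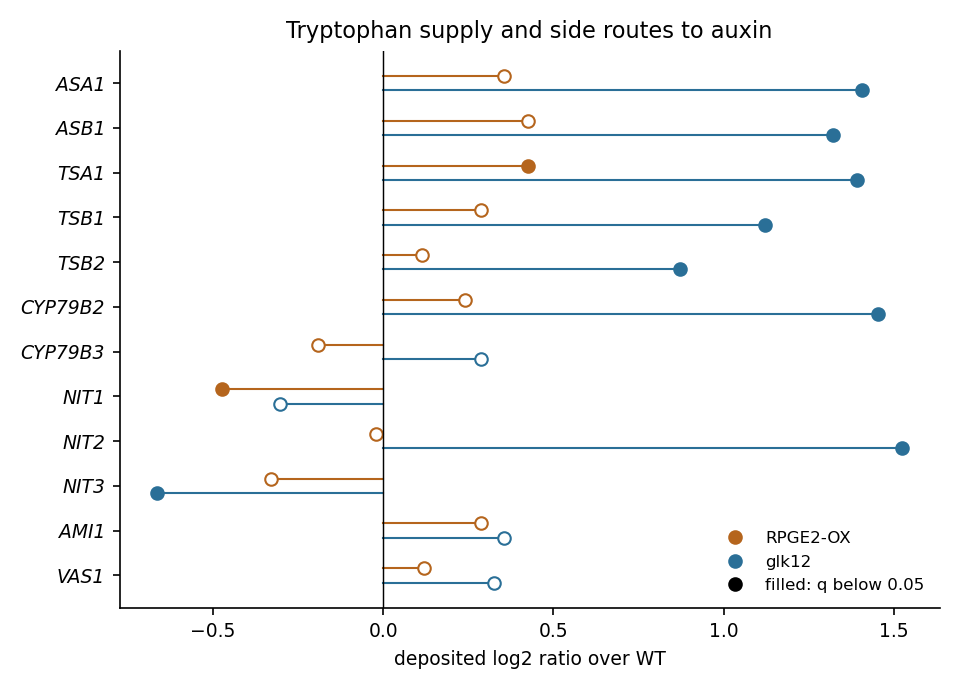
Deposited log2 ratio over WT of 12 genes for tryptophan supply and side routes to auxin in RPGE2-OX (upper point of each pair) and glk12 (lower point), filled at q below 0.05. The 5 tryptophan synthesis genes from ASA1 to TSB2 lie between 0.11 and 0.43 in RPGE2-OX and between 0.87 and 1.41 in glk12.

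IAA19 (AT3G15540, chromosome 3, 5264001 to 5265695), an Aux/IAA repressor induced by auxin and PIFs during stem elongation, had the lowest ratio of the 10 in RPGE2-OX. The authors' deposited table gave -1.68 there, a 3.19-fold lower level with an interval of -2.79 to -0.56, and its q of 0.0491 lay just inside the threshold. In glk12 the deposited ratio of IAA19 was -0.88 and did not pass (q = 0.36, interval -1.80 to 0.04). Its implied error, 0.57 in RPGE2-OX and 0.47 in glk12, was the largest of the 10 members in both lines. IAA29 (AT4G32280, chromosome 4, 15583332 to 15584903), another Aux/IAA gene raised by PIFs in shade, lay just outside the threshold in RPGE2-OX. Its deposited ratios were -0.84 in RPGE2-OX (q = 0.0716, interval -1.43 to -0.25) and -0.74 in glk12 (q = 0.282, interval -1.44 to -0.03).

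Of the 24 further tested Aux/IAA genes, 1 fell in RPGE2-OX (IAA7) and 3 fell in glk12 (IAA7, IAA17 and IAA28), and none rose in the authors' deposited table. Over all tested genes, 3.98% were lower in RPGE2-OX and 3.04% in glk12, so the single call in RPGE2-OX is near the share of all genes. IAA7 had deposited log2 ratios of -0.44 in RPGE2-OX (q = 0.0231) and -0.53 in glk12 (q = 0.047). For IAA17 the deposited values were -0.15 in RPGE2-OX (q = 0.674) and -0.65 in glk12 (q = 0.0075), and for IAA28 -0.17 in RPGE2-OX (q = 0.654) and -0.66 in glk12 (q = 0.0155). IAA6, the closest relative of IAA19 (76.3% of aligned coding bases), stood at -1.02 in RPGE2-OX (q = 0.35) and -1.68 in glk12 (q = 0.225) in the deposited table. Including IAA19 and IAA29, 19 of 26 ratios lay below 0 in RPGE2-OX (median -0.16) and 21 of 26 did in glk12 (median -0.31). Without IAA19 and IAA29, 17 of 24 did in RPGE2-OX (median -0.15) and 19 of 24 in glk12 (median -0.21). Of all tested ratios, 47.8% lay below 0 in RPGE2-OX and 47.6% in glk12. None of 12 genes for auxin receptors and auxin response factors was called in either line (medians 0.00 and 0.14). Of 11 auxin transport genes, the influx carrier gene AUX1 fell in RPGE2-OX (deposited ratio -0.41, q = 0.0269) and none was called in glk12. All 11 transport ratios lay below 0 in RPGE2-OX (median -0.24) and 7 of 11 did in glk12 (median -0.16). None of 3 auxin inactivation genes was called in either line. With 6.55% of all tested genes called in RPGE2-OX and 5.67% in glk12, the counts of calls for receptors, transport and inactivation are near that share.

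**Figure D5:**
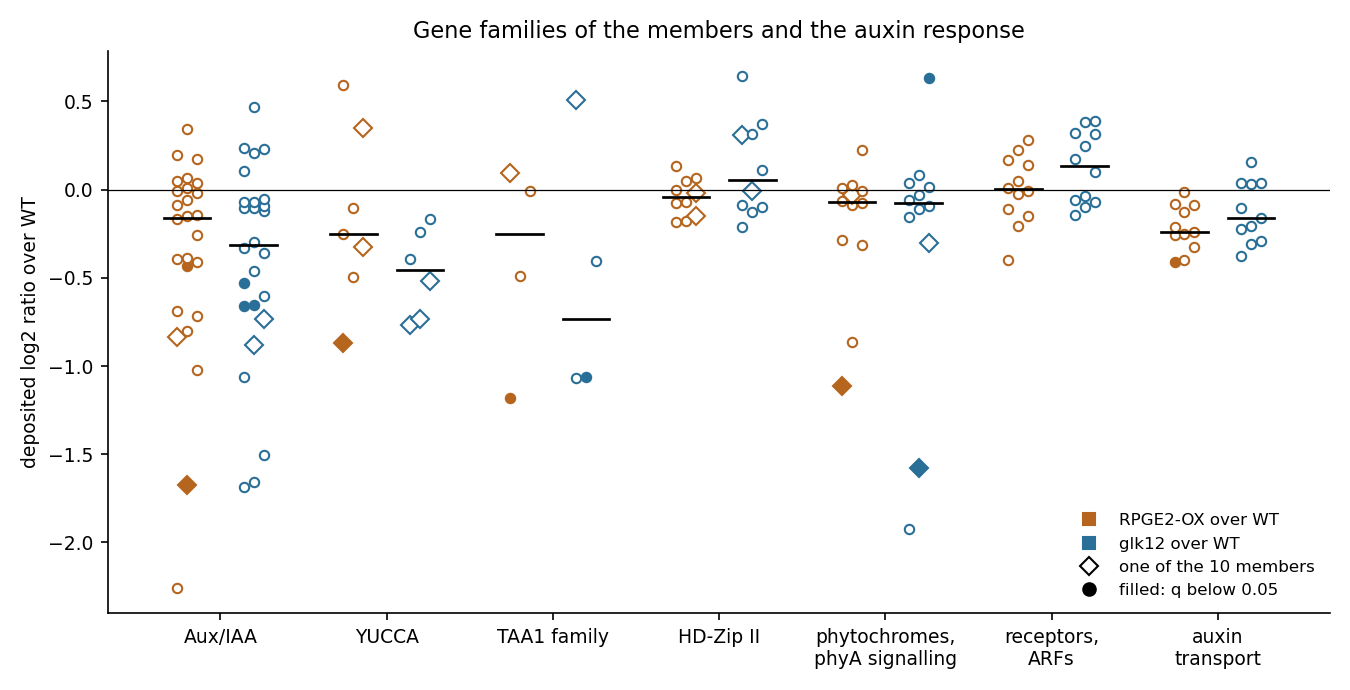
Deposited log2 ratios over WT of every tested gene in 7 lists, RPGE2-OX left and glk12 right within each list, with diamonds for the 10 members, filled symbols at q below 0.05 and a black line at the list's median. The HD-Zip II genes and the receptors and ARFs have no filled symbol in either line. Calls covered 6.55% of all tested genes in RPGE2-OX and 5.67% in glk12.

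Among further shade avoidance genes, HFR1, an atypical bHLH protein that restrains PIFs, rose in RPGE2-OX (deposited log2 ratio 0.49, q = 0.0231) and stood at -0.40 in glk12 (q = 0.33). PAR2, another HLH inhibitor, fell in RPGE2-OX (-0.54, q = 0.0384) and in glk12 (-0.85, q = 0.0165) in the authors' deposited table. PIF4, PIF5 and PIF7 fell in RPGE2-OX by 0.72, 0.44 and 0.56 on the log2 scale and had ratios of -0.36, -0.12 and -0.37 that did not pass in glk12, in the deposited table. In this list of 13 tested genes, 4 fell and 1 rose in RPGE2-OX, where 3.98% of all tested genes were lower and 2.57% higher. In glk12 1 of the 13 fell, where 3.04% of all tested genes were lower. Ratios below 0 were held by 12 of the 13 in RPGE2-OX (median -0.34) and by 11 in glk12 (median -0.36). Of all tested ratios, 47.8% lay below 0 in RPGE2-OX and 47.6% in glk12. The difference of HFR1 between the lines, RPGE2-OX minus glk12, was 0.89 ± 0.26 (implied SE) and did not pass adjustment. It passed where the part of the shared WT was taken out of the error.

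RPGE2-OX and glk12 share the WT samples in the deposited ratios, and the authors' table has no test between them. The difference of both ratios, RPGE2-OX minus glk12, was divided by an error whose square is the sum of both squared implied errors, and two-sided normal p values were adjusted by Benjamini-Hochberg over 21380 genes. This test called 32 genes (0.15%) and none of the 10 members, and 0 of the 10 had an unadjusted p below 0.05, against 3.6% of all genes. Both other error settings also called none of the 10. FHL differed by 0.46 ± 0.51 (implied SE), with an interval of -0.53 to 1.45. The difference of IAA19 was -0.80 ± 0.74 (interval -2.24 to 0.65), and that of YUC2 was -0.10 ± 0.41 (interval -0.90 to 0.70). YUC9 had the largest difference of the 10 in size, 0.87 ± 0.59 (interval -0.28 to 2.01). A difference of 1 in size is a doubling or halving between the lines. It lies within the interval of 8 of the 10 genes and outside those of YUC2 and FHY1. The intervals of YUC2 and FHY1 still hold smaller differences, so none of the 10 is shown to respond alike in both lines. These intervals keep the shared WT part in the error, which makes them too wide rather than too narrow, and the count of 8 depends on it.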

How the data were processed

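The only file is a table of the authors' own comparisons. Its log2 ratios of each line over Col-0 and its q values were computed and deposited by the authors, per the file headers. CASAVA 1.8.2, TopHat, Cufflinks, Cuffdiff and the build TAIR10 are named without role, per the submitters' processing notes. The way replicates were combined, filters and strand settings are not stated. Total RNA (1 µg) went into stranded libraries, per the labels' protocols.

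A q of 1 was read as not tested, so 21680 genes counted as tested in RPGE2-OX and 21843 in glk12. Infinite ratios, stored as spreadsheet text, were decoded by sign, and none belongs to a member. Raw p values were recovered by inverting the Benjamini-Hochberg adjustment (lowest p 5e-05, held by 615 genes in RPGE2-OX and 571 in glk12). The implied error of a ratio is the ratio over the z score that matches its p, which can only be too large at the lowest p. For z scores below 0.1 the difference test took the larger of the gene's 2 errors. Alternatives were other q thresholds, a minimum fold, centring, errors borrowed from the other line (1.5 times) and removal of the shared WT part.

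The members and lists were chosen with earlier results of these data known, so list counts are descriptions. Outside the members, genes called in either line are named, at most 6 per list and comparison. TSB2 and NIT3, and the uncalled genes of each list named for their role, their place in the list or their likeness to a member, were added after values were seen. Symbols follow the table or RefSeq.

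Sequences, coordinates and coding alignments come from RefSeq's TAIR10.1, whose nuclear chromosomes are those of TAIR10, read with Python 3.11.15 and Biopython 1.88. Protein features planned for the members were replaced by coding-sequence identity, as the share of aligned base pairs in a global alignment, and promoters were read from the assembly.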

Additional observations from a re-analysis of the deposited data

How the results depend on the processing

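Of the alternatives, only centring can move a ratio, by the same small shift for every gene of a line. Centred on the median of all tested genes, each of the 20 ratios of the members (10 genes in 2 lines) moved by less than its implied error. With shifts of only 0.01 in RPGE2-OX and 0.02 in glk12, this setting could hardly have come out otherwise. The errors of ATHB2 in RPGE2-OX and ATHB4 in glk12 are not usable, because their p values lie too close to 1. At a q below 0.01, 1 member (FHL) was called in RPGE2-OX in place of 3, and the counts over all genes were 824 in RPGE2-OX and 740 in glk12 in place of 1419 and 1238. At a q below 0.1, 4 members were called in RPGE2-OX, with IAA29 added, and 1 in glk12. A minimum of 1.5-fold left 921 genes in RPGE2-OX and 3 members. In the difference between the lines, 80 genes passed with borrowed errors and 104 without the shared WT part, in place of 32. The number of members that passed was 0 in all 3 settings.

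No paired analysis was possible because the table holds no values per replicate. Leaving out each replicate in turn could not be run for the same reason. With 1 ratio and 1 q value per gene, the calls of IAA19 (q = 0.0491) and YUC2 (q = 0.0208) in RPGE2-OX cannot be traced to single libraries, and the depth behind them is unknown.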
